A study of Micropterus salmoides with 6 samples.

Results

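The genes described here protect cells against peroxides and superoxide: enzymes that make, use and recycle glutathione, the peroxiredoxin, thioredoxin, glutaredoxin and methionine sulfoxide reductase families, superoxide dismutases, heme oxygenase, the quinone reductase gene nqo1, ferritin, and the regulators nfe2l2 (Nrf2) and keap1. They were chosen by gene symbol from the deposited table of 27166 genes of the largemouth bass (Micropterus salmoides), a freshwater fish raised in aquaculture. The symbols matched 56 genes, and all 56 had 10 or more counts in at least 3 libraries. A further 13325 IDs are LOC numbers without a name, and any antioxidant gene among them was not analysed here. RNA came from whole bodies of larvae after 12 days of feeding. The SP_L group held deformed larvae fed a diet with no added phospholipid (0%), and the SP_H group normal larvae fed a diet containing 8% phospholipid. There were 3 libraries for each group, and 30 larvae were pooled for every library. Deformed larvae were picked for SP_L and normal larvae for SP_H, so diet and deformity cannot be told apart, and no deformed larvae on phospholipid or normal larvae without it were compared. A pool also gives no spread between single larvae. In whole bodies, fewer cells of a type and less RNA per cell cannot be told apart either.

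As background, glutathione is a small sulfur-containing peptide that glutathione peroxidases use to reduce peroxides and glutathione transferases attach to reactive compounds. Peroxiredoxins do the same job with thioredoxin, and both systems are recharged by NADPH. Nrf2 is a transcription factor held back by Keap1; when oxidants or electrophiles modify Keap1, Nrf2 accumulates and raises many of these genes. Membrane phospholipids rich in unsaturated fatty acids are a main target of peroxidation, which gpx4 counters by reducing phospholipid hydroperoxides inside the membrane.

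The libraries held between 14958887 and 16922264 counts. SP_H replicate 3 stood apart in gut and liver markers. Its summed hepatocyte markers (18 genes) came to 2793 CPM, against 4409 and 4743 CPM in the other SP_H libraries and 4482 to 4929 CPM in SP_L. Its 8 enterocyte markers summed to 38.6 CPM, against 96.2 to 101 CPM in the other SP_H libraries and 82.4 to 117 CPM in SP_L. Muscle markers were higher in SP_L (16 genes, 94951 to 109393 CPM) than in SP_H (73206 to 81889 CPM). Red blood cell markers were lower in SP_L (11 genes, 2723 to 3423 CPM, against 4408 to 5264 CPM in SP_H). No marker in these lists was at 0 in every library.

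Scaling decides the sign of small differences in these libraries. Counts were scaled by TMM, which matches the bulk of genes between libraries. With library size alone, the median over all genes went from 0.00 to -0.13 on the log2 scale. Fold changes below are given on the log2 scale, SP_L over SP_H, each ± the standard error from edgeR. Levels are the authors' deposited FPKM, reads per kilobase of gene scaled to the library's total, divided by each library's TMM factor, so that they can be set side by side both between genes and between libraries.

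No antioxidant gene passed the test of SP_L against SP_H. The quasi-likelihood test of edgeR, adjusted by Benjamini-Hochberg over 20627 genes, called 0 of the 56, with a smallest adjusted p of 0.296 for prdx3, where it called 0.0679% of all tested genes. DESeq2 called 0 of the 56 against 2.18% of all genes, and limma-voom 0 against 0.0873%. At an unadjusted p under 0.05, edgeR counted 6 genes higher in SP_L (glrx3, glrx5, gpx1a, keap1b, mgst3b and prdx3; 6.9% of all genes were higher at that level) and 0 lower (5.84% of all genes). That is 10.7% of the 56 genes, beside 12.7% of all tested genes. DESeq2 counted 4 of the 56 (10.2% of all genes) and limma-voom 6 (12.8%). The edgeR count of 6 was 2 when SP_H replicate 3 was left out, 1 higher and 1 lower without SP_L replicate 1, and 11 higher without SP_L replicate 3. The count over all 20627 tested genes also moved, from 2629 with every library to 2204, 2151 and 2761 in the same order.

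The fold changes were small and their errors bound them. They ranged from -0.29 for txndc16 to 0.48 for msrb1a, with standard errors between 0.08 and 0.36. In 55 of the 56 genes the 95% interval lay within a fold of 2 in either direction, the exception being txndc16, and 81.5% of all tested genes had such an interval. In 37 of the 56 (66.1%, beside 56.6% of all genes) it lay within a fold of 1.5. These intervals cover the spread between libraries and not the choice of scaling. The median over the 56 genes was 0.11, beside 0.00 for all genes, and 39 had positive values (69.6%, beside 50.5% of all genes). With library size alone 26 of the 56 were positive, where 28.5% of all genes were. The median was then -0.02, beside -0.13 for all genes. The difference between both medians was 0.11 under either scaling, 0.07 without SP_L replicate 1 and 0.13 without SP_L replicate 3.

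**Figure D1:**
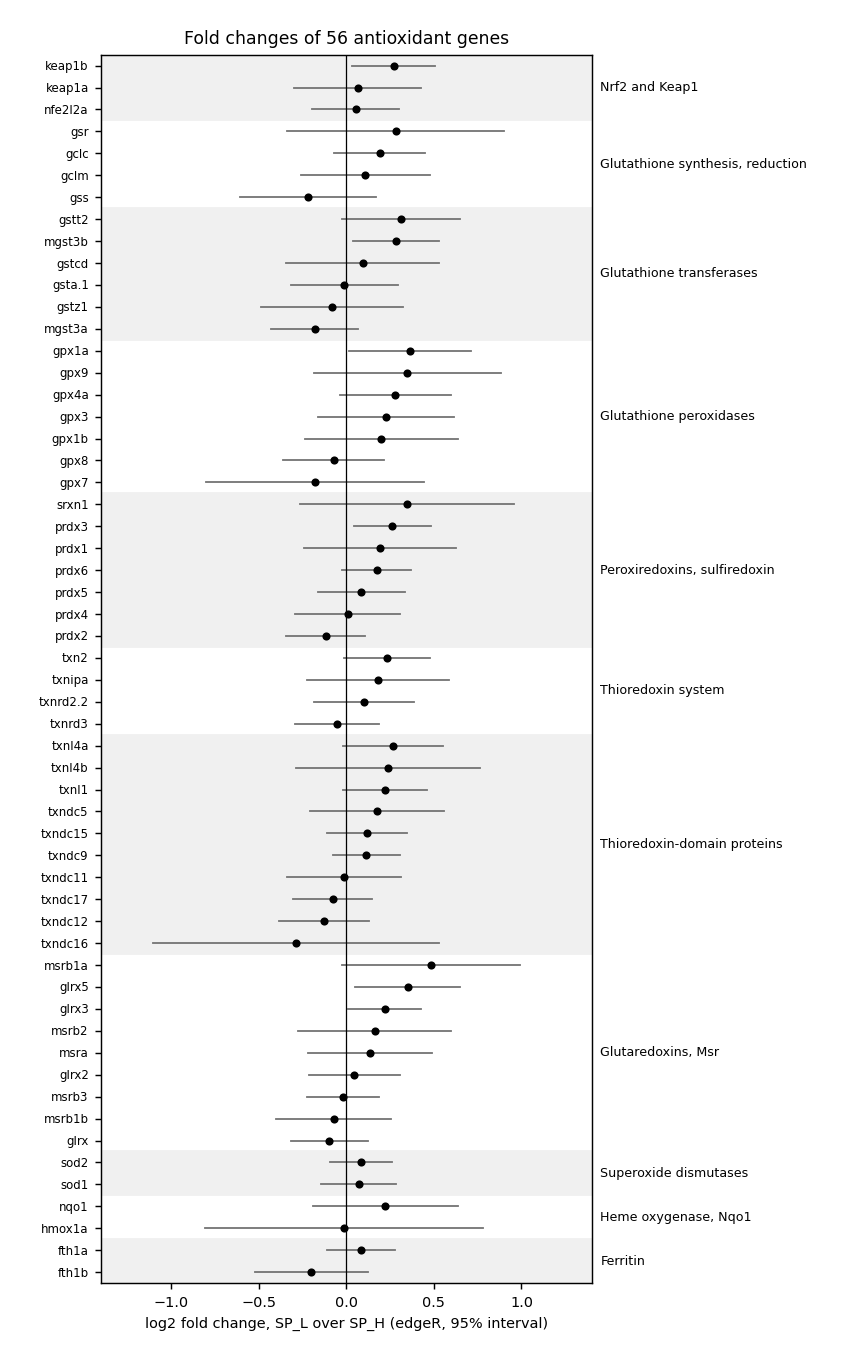
Log2 fold change of SP_L over SP_H (x axis) for each of the 56 genes (y axis), grouped by role; points are edgeR estimates with TMM scaling and lines are 95% intervals. All values lie between -0.29 and 0.48, and 39 of the 56 points are to the right of 0 (26 when only library size is used for scaling). Of all tested genes 50.5% were positive with TMM and 28.5% with library size alone.

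Groups without overlap showed the same dependence on scaling. On TMM-scaled values, 10 genes were higher in all 3 SP_L libraries than in any SP_H library, and 0 were lower. That is 17.9% of the 56, beside 9.64% of all tested genes that were higher without overlap and 9.46% that were lower. The 10 are glrx3, glrx5, gstt2, keap1b, mgst3b, prdx3, prdx6, txn2, txndc15 and txnl4a. On the deposited FPKM, which are scaled by library size, 0 were higher without overlap (3.76% of all genes) and 5 were lower (21.4% of all genes): glrx, gss, mgst3a, prdx2 and txnrd3. SP_L replicate 1 was the highest library for 25 of the 56 genes on TMM-scaled values, and SP_H replicate 3 the lowest for 20. The same counts were not made over all tested genes, so these are not read as particular to the 56. The median over the 56 genes of TMM-scaled log2 CPM minus each gene's mean was 0.13 in SP_L replicate 1 and -0.10 in SP_H replicate 3. It was 0.03 and 0.003 in SP_L replicates 2 and 3, and -0.001 and -0.03 in SP_H replicates 1 and 2. Over all tested genes this median was between 0.001 and 0.009 in every library.

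Levels spanned more than 3 orders of magnitude, and their order was led by iron storage and peroxide removal. The ferritin heavy chain gene fth1a, whose product stores iron and keeps it from driving radical formation, had a mean of 1088 TMM-scaled FPKM over the 6 libraries. It was followed by prdx2 (220), sod1 (191) and gpx3 (186). The ranges of these last 3 genes overlap across the libraries. Within each of the 6 libraries prdx2 was above sod1, while the place of gpx3 among them changed between libraries. The next genes, prdx6 (96.9), sod2 (91.0) and prdx3 (84.1), were likewise neighbours whose ranges overlap, though prdx6 was above prdx3 in every library. At the low end stood the inducible genes srxn1 (1.46) and hmox1a (1.28) and the thioredoxin-domain gene txndc16 (0.619). The summed level of the 56 genes was 2809 to 3125 TMM-scaled FPKM in SP_H and 3047 to 3341 in SP_L, ranges that overlap.

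**Figure D2:**
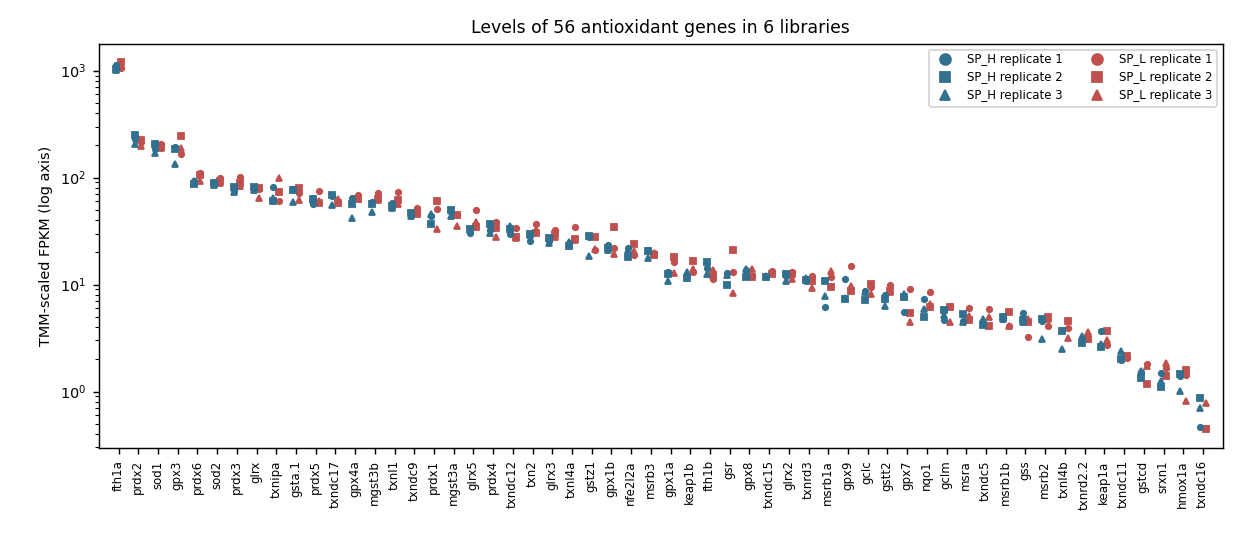
TMM-scaled FPKM on a log axis (y axis) of the 56 genes, ordered by their mean over the 6 libraries (x axis); each point is a library, blue for SP_H and red for SP_L. The order runs from fth1a at a mean of 1088 to txndc16 at 0.619, and the spread between genes is far wider than that between libraries of a gene.

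The regulators came first in the pathway. The Nrf2 gene nfe2l2a stood at 19.1, 23.9 and 20.4 TMM-scaled FPKM in SP_L replicates 1 to 3 and at 21.9, 18.3 and 21.0 in SP_H. The groups overlapped, and its log2 fold change was 0.05 ± 0.11 (edgeR's adjusted p = 0.894). The gene for its inhibitor, keap1b, had values of 13.2, 16.8 and 14.1 in SP_L and of 12.0, 11.6 and 12.98 in SP_H. All 3 SP_L libraries were above SP_H, by a narrow margin for SP_L replicate 1. Its log2 fold change was 0.27 ± 0.11 (edgeR's adjusted p = 0.321), and it was between 0.16 and 0.33 with any library left out. The second copy, keap1a, was expressed at the lower levels of 2.75, 3.71 and 3.04 in SP_L and 3.66, 2.63 and 2.80 in SP_H. It overlapped between groups, with a log2 fold change of 0.06 ± 0.16.

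Genes known as Nrf2 targets in mammals did not pass the test. The quinone reductase gene nqo1 stood at 8.49, 6.16 and 6.58 TMM-scaled FPKM in SP_L and at 7.27, 5.002 and 5.92 in SP_H, with a log2 fold change of 0.22 ± 0.18 (edgeR's adjusted p = 0.671). The heme oxygenase gene hmox1a, whose product breaks down heme, had values of 1.41, 1.61 and 0.814 in SP_L and of 1.39, 1.46 and 1.02 in SP_H. The groups overlapped in both genes. The log2 fold change of hmox1a was -0.01 ± 0.35, and its interval from -0.81 to 0.78 was wider than that of nqo1.

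Among the genes of glutathione synthesis and recycling, gsr varied most between libraries. Glutamate-cysteine ligase, the rate-limiting enzyme of glutathione synthesis, has a catalytic subunit (gclc) and a modifier subunit (gclm). Their log2 fold changes were 0.19 ± 0.12 and 0.11 ± 0.16 (edgeR's adjusted p = 0.548 and 0.836). The catalytic subunit gene gclc stood at 9.42, 10.1 and 8.23 TMM-scaled FPKM in SP_L and at 8.63, 7.21 and 8.52 in SP_H. Of the SP_L libraries, replicate 3 lay within the SP_H range. Glutathione synthetase (gss), which adds the last amino acid, had a value of -0.22 ± 0.17 and levels of 3.22, 4.50 and 4.74 in SP_L and 5.48, 4.63 and 4.44 in SP_H. The glutathione reductase gene gsr, whose product returns oxidised glutathione to its reduced form with NADPH, stood at 13.1, 21.0 and 8.36 in SP_L and at 12.8, 9.85 and 12.3 in SP_H. Both the highest and the lowest of the 6 libraries were SP_L libraries. Its log2 fold change of 0.28 ± 0.28 (edgeR's adjusted p = 0.727) was -0.13 when SP_L replicate 2 was left out and 0.55 when SP_L replicate 3 was.

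Glutathione transferases differed in sign within the family, also between both copies of mgst3, which code for a microsomal transferase of membranes. The copy mgst3b stood at 72.3, 63.4 and 61.6 TMM-scaled FPKM in SP_L and at 58.5, 56.5 and 47.3 in SP_H. All SP_L libraries were above all SP_H libraries, with a log2 fold change of 0.28 ± 0.11 (edgeR's adjusted p = 0.318). The copy mgst3a stood at 44.2, 45.1 and 35.6 in SP_L and at 47.6, 49.9 and 44.1 in SP_H. Here the lowest library was SP_L replicate 3 and the log2 fold change was -0.18 ± 0.11 (edgeR's adjusted p = 0.539). A ratio within a library does not depend on the scaling. The level of mgst3b over that of mgst3a was 1.64, 1.41 and 1.73 in SP_L and 1.23, 1.13 and 1.07 in SP_H, without overlap. On the log2 scale the difference of the ratios was 0.47, and 0.41 to 0.56 with any library left out. A shift in such a ratio would mean unequal change and would not say which copy changed. The exact permutation test of this ratio, given below, cannot fall below p = 0.10 with 3 libraries against 3. Unequal change of both copies is therefore not established.

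Of the other transferases, gstt2 had the largest fold change of the 6 genes, and its groups did not overlap on TMM-scaled values. Its log2 fold change was between 0.23 and 0.40 with any library left out. The rest gave smaller values. The theta-class gene gstt2 had a log2 fold change of 0.31 ± 0.15 (edgeR's adjusted p = 0.425), from levels of 9.92, 8.63 and 8.43 TMM-scaled FPKM in SP_L and 8.07, 7.30 and 6.32 in SP_H. The alpha-class gene gsta.1, the most highly expressed of the 6 transferase genes at a mean of 71.4, had a value of -0.01 ± 0.14. Its levels were 72.1, 80.1 and 61.3 in SP_L and 78.7, 77.4 and 59.1 in SP_H, with overlap. The gene gstz1, whose product also works in tyrosine breakdown, had a value of -0.08 ± 0.18, and gstcd one of 0.09 ± 0.19. SP_H replicate 3, the library with the lowest hepatocyte markers, was also the lowest of the 6 for gsta.1, gstt2, gstz1 and mgst3b. The part of tissue content in these values was not tested.

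Across 6 pairs of genes whose symbols differ only in a final a or b, the mgst3 pair was the only pair whose ratio did not overlap between groups, and 17.3% of 944 such pairs among all tested genes did not overlap. The exact two-sided permutation test over libraries gave p = 0.10 for that pair, the smallest p that 3 libraries against 3 can give, and 0.36 after adjustment over the 6 pairs. The ratio of msrb1b to msrb1a was 0.346, 0.579 and 0.303 in SP_L and 0.762, 0.453 and 0.610 in SP_H. It overlapped between groups, with a log2 difference of -0.60 (exact permutation p = 0.20). For fth1b over fth1a the log2 difference was -0.28 (p = 0.20), for gpx1b over gpx1a -0.20 (p = 0.30), and for keap1b over keap1a 0.20 (p = 0.30), each by the same exact permutation test. The genes txnl4a and txnl4b are distinct genes rather than recent copies, and their ratio differed by -0.01 (exact permutation p = 1). Where near-identical copies share reads, the counting could split them between the copies, and the sources used here do not say how such reads were treated.

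**Figure D3:**
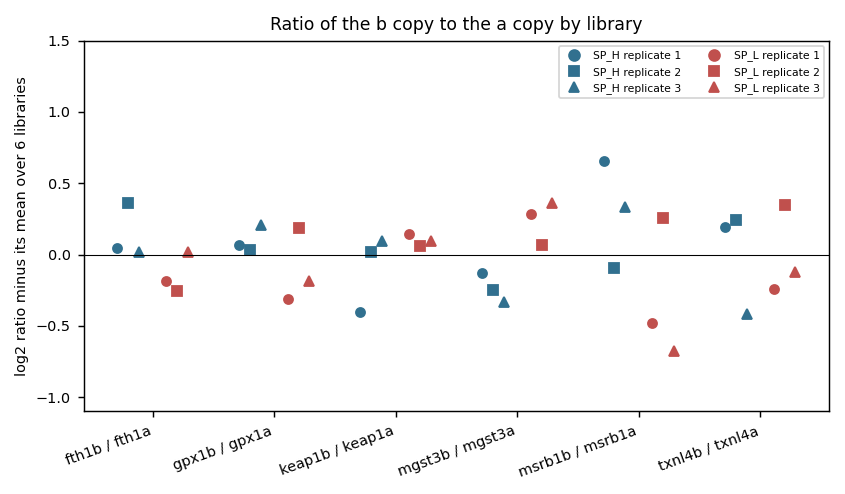
Log2 ratio of the b gene to the a gene in each library, minus its mean over the 6 libraries (y axis), for 6 pairs (x axis); blue points are SP_H libraries and red points SP_L libraries. For mgst3b over mgst3a the 3 red points lie above the 3 blue ones; in the other 5 pairs the colours overlap.

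Of the 7 glutathione peroxidase genes, 5 had positive fold changes (50.5% of all genes), also with library size alone (28.5% of all genes). They included gpx1a, which codes for the cytosolic selenoenzyme, at 16.2, 18.03 and 12.9 TMM-scaled FPKM in SP_L and 13.1, 12.6 and 10.9 in SP_H. SP_L replicate 3 lay inside the SP_H range. Its log2 fold change was 0.36 ± 0.15 (edgeR's adjusted p = 0.367), the largest of the family, and it was between 0.25 and 0.48 with any library left out. The phospholipid hydroperoxide peroxidase gene gpx4a, the member closest to membrane lipids, stood at 69.4, 63.0 and 65.3 in SP_L and at 64.1, 56.8 and 41.9 in SP_H. The groups overlapped through SP_H replicate 1, and SP_H replicate 3 was far below the other libraries. The log2 fold change of 0.28 ± 0.14 (edgeR's adjusted p = 0.454) became 0.12 without SP_H replicate 3 and 0.42 without SP_H replicate 1. The gene gpx3, for the peroxidase secreted into plasma, was the most abundant of the family at 165, 246 and 191 in SP_L and 194, 186 and 135 in SP_H. It had a value of 0.23 ± 0.17, which became 0.08 without SP_H replicate 3 and 0.05 without SP_L replicate 2. The hepatocyte markers were also lowest in SP_H replicate 3 (2793 CPM), and their part in the values of gpx3 and gpx4a was not tested.

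The remaining peroxidases showed no common direction. The gene gpx9 had a log2 fold change of 0.35 ± 0.24 from levels of 14.9, 8.79 and 9.65 TMM-scaled FPKM in SP_L and 11.4, 7.28 and 7.47 in SP_H, with overlap. The second copy of the cytosolic enzyme, gpx1b, had a value of 0.20 ± 0.19, which became -0.10 without SP_L replicate 2. The endoplasmic reticulum enzymes gpx7 and gpx8, which help to form disulfide bonds from peroxide, had values of -0.18 ± 0.28 and -0.07 ± 0.13.

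Among peroxiredoxins the genes prdx3 and prdx2 had opposite signs, and neither passed the test. The mitochondrial gene prdx3 stood at 102, 89.2 and 83.7 TMM-scaled FPKM in SP_L and at 75.7, 80.9 and 72.9 in SP_H. The groups did not overlap, and the log2 fold change of 0.26 ± 0.10 had the lowest p of the 56 genes (edgeR's adjusted p = 0.296, and 0.263 to 0.555 over all alternatives). The cytosolic gene prdx2, known for its abundance in red blood cells, stood at 215, 223 and 196 in SP_L and at 231, 251 and 205 in SP_H, with a log2 fold change of -0.12 ± 0.10 (edgeR's adjusted p = 0.673). The groups overlapped on this scale but not on the deposited FPKM, where all SP_L libraries were lower. Of 11 red blood cell markers 10 had negative fold changes, and their summed level did not overlap between groups. EdgeR called 0 of these markers, and DESeq2 called 2 lower and 1 higher (2.18% of all genes in either direction). At an unadjusted p under 0.05 edgeR counted 7 lower and 1 higher, beside 5.84% and 6.9% of all genes. The part of red blood cell content in the value of prdx2 was not tested.

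The other peroxiredoxin genes lay between these values. The gene prdx6, whose product has peroxidase and phospholipase activity and acts on phospholipid hydroperoxides, stood at 110, 105 and 93.5 TMM-scaled FPKM in SP_L and at 93.4, 87.7 and 92.2 in SP_H. The groups were separated by a margin far smaller than the spread within SP_L, and the log2 fold change was 0.17 ± 0.09 (edgeR's adjusted p = 0.455). Values were 0.19 ± 0.19 for prdx1, 0.08 ± 0.11 for prdx5 and 0.01 ± 0.13 for the endoplasmic reticulum enzyme prdx4. Sulfiredoxin (srxn1), which repairs over-oxidised peroxiredoxins, had a log2 fold change of 0.35 ± 0.27 at the low levels of 1.67, 1.39 and 1.84 in SP_L and 1.49, 1.11 and 1.25 in SP_H.

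**Figure D4:**
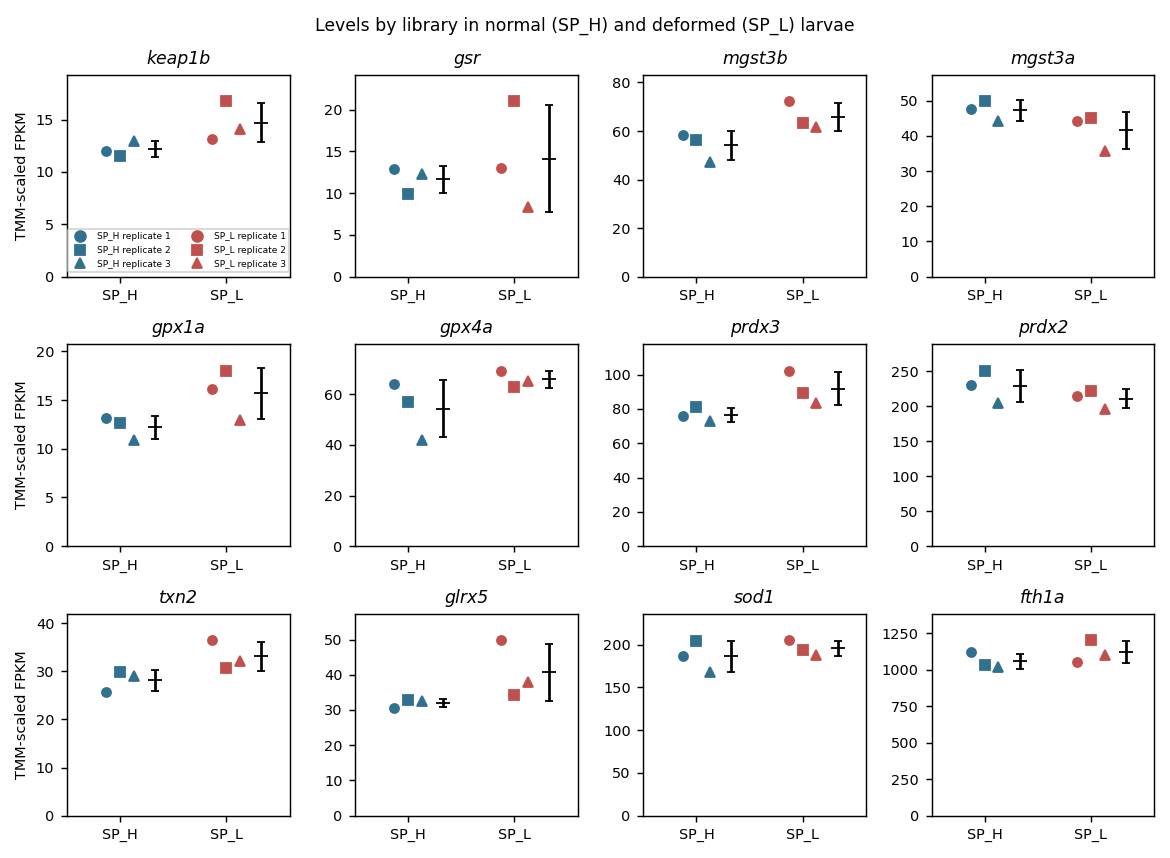
TMM-scaled FPKM (y axis, from 0) in each library for 12 of the genes; blue points are SP_H and red points SP_L, and black bars give the mean and SD of 3 libraries. The groups do not overlap for keap1b, mgst3b, prdx3, txn2 and glrx5. These 12 genes are a selection: over all 56 genes 17.9% did not overlap, beside 19.1% of all tested genes. The gene gsr varies from 8.36 to 21.0 within SP_L, and SP_H replicate 3 is low for gpx4a (41.9).

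The thioredoxin genes included txn2, for the mitochondrial thioredoxin that reduces prdx3. It stood at 36.5, 30.7 and 32.1 TMM-scaled FPKM in SP_L and at 25.7, 29.8 and 29.1 in SP_H, without overlap, and had a log2 fold change of 0.23 ± 0.11 (edgeR's adjusted p = 0.418). The mitochondrial thioredoxin reductase gene txnrd2.2 had values of 3.18, 3.12 and 3.58 in SP_L and of 3.10, 2.84 and 3.28 in SP_H. Its groups overlapped, with a log2 fold change of 0.10 ± 0.13, and the other reductase gene, txnrd3, had one of -0.05 ± 0.11. The thioredoxin inhibitor gene txnipa, which is known to respond to glucose, was the most abundant of the group at 60.7, 73.7 and 99.8 in SP_L and 81.6, 60.2 and 64.7 in SP_H. Its log2 fold change of 0.18 ± 0.18 (edgeR's adjusted p = 0.728) became -0.04 without SP_L replicate 3.

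The 10 genes named for a thioredoxin domain have varied roles, and 6 had positive values (4 with library size alone). Of all genes 50.5% were positive, and 28.5% with library size alone. The genes txnl4a, which codes for a spliceosome protein, and txnl1, for a protein that binds the proteasome, had log2 fold changes of 0.27 ± 0.13 and 0.22 ± 0.11 (edgeR's adjusted p = 0.423 and 0.427). The gene txnl4a stood at 34.9, 26.9 and 25.9 TMM-scaled FPKM in SP_L and at 24.5, 23.2 and 25.2 in SP_H. The groups did not overlap, and SP_L replicate 1 was far above the rest. The gene txnl1 stood at 72.6, 61.3 and 56.3 in SP_L and at 57.3, 54.2 and 51.5 in SP_H. Without SP_L replicate 1 the log2 fold change was 0.12 for txnl4a and 0.11 for txnl1. The gene txndc9 had levels of 52.4, 45.6 and 48.8 in SP_L and 45.2, 46.6 and 43.8 in SP_H, and the cytosolic disulfide reductase gene txndc17 levels of 59.7, 58.2 and 62.6 in SP_L and 67.1, 68.2 and 55.3 in SP_H. Both overlapped between groups, with log2 fold changes of 0.11 ± 0.08 and -0.08 ± 0.10. The others ranged from -0.29 ± 0.36 for txndc16 to 0.24 ± 0.23 for txnl4b.

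Glutaredoxins use glutathione to reduce mixed disulfides, and some carry iron-sulfur clusters. The mitochondrial iron-sulfur assembly gene glrx5 stood at 49.9, 34.2 and 38.0 TMM-scaled FPKM in SP_L and at 30.6, 32.8 and 32.4 in SP_H. The groups did not overlap, and SP_L replicate 1 was the highest by a wide margin. The log2 fold change of 0.35 ± 0.13 (edgeR's adjusted p = 0.306; DESeq2 0.254) became 0.17 without that library and 0.46 without SP_L replicate 2. The cytosolic iron-sulfur gene glrx3 stood at 32.5, 29.5 and 28.1 in SP_L and at 25.6, 27.4 and 24.4 in SP_H, also without overlap, with a value of 0.22 ± 0.09 (edgeR's adjusted p = 0.366). The classic disulfide reductase gene glrx, the most abundant of the family, had levels of 77.5, 79.2 and 64.9 in SP_L and 78.4, 82.5 and 76.0 in SP_H and a value of -0.10 ± 0.10. The mitochondrial gene glrx2 had a value of 0.05 ± 0.12.

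Muscle markers were higher in SP_L, as were the TMM-scaled values of the mitochondrial genes prdx3, txn2 and glrx5. These 3 were picked from the 10 genes that were higher in SP_L without overlap. The rest of the 10 are glrx3, gstt2, keap1b, mgst3b, prdx6, txndc15 and txnl4a, which are not described as mitochondrial here. On the deposited FPKM prdx3, txn2 and glrx5 overlapped between groups. The genes sod2, txnrd2.2 and glrx2, also described as mitochondrial here, overlapped on TMM-scaled values too. Their log2 fold changes were 0.08, 0.10 and 0.05, so the higher values were not shared by all mitochondrial members. Of 16 muscle markers 14 had positive fold changes (50.5% of all genes), 1 was called by edgeR (0.0679% of all genes) and 7 by DESeq2 (2.18%). The part of muscle content in the values of prdx3, txn2 and glrx5 was not tested.

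Methionine sulfoxide reductases repair oxidised methionine in proteins. The selenoprotein gene msrb1a had the largest fold change of the 56 genes, 0.48 ± 0.23 (edgeR's adjusted p = 0.415), with levels of 11.9, 9.52 and 13.5 TMM-scaled FPKM in SP_L and 6.23, 10.9 and 7.77 in SP_H. SP_H replicate 2 lay above SP_L replicate 2, so the groups overlapped. The value was 0.73 without SP_H replicate 2 and 0.31 without SP_H replicate 1. The other 4 reductase genes had values between -0.07 ± 0.15 (msrb1b) and 0.16 ± 0.19 (msrb2).

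Superoxide dismutases turn superoxide into hydrogen peroxide, and their genes were among the most tightly bounded. The cytosolic copper-zinc enzyme gene sod1 stood at 206, 194 and 188 TMM-scaled FPKM in SP_L and at 187, 204 and 168 in SP_H. The mitochondrial manganese enzyme gene sod2 stood at 98.4, 93.0 and 89.7 in SP_L and at 90.3, 88.7 and 86.0 in SP_H. Both overlapped between groups. Their log2 fold changes were 0.07 ± 0.09 and 0.08 ± 0.08 (edgeR's adjusted p = 0.810 and 0.712), with 95% intervals from -0.14 to 0.28 and from -0.09 to 0.26; both values turned negative, to -0.06 and -0.05, with library size alone.

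The ferritin heavy chain genes differed in sign and did not pass the test. The abundant fth1a stood at 1055, 1203 and 1103 TMM-scaled FPKM in SP_L and at 1118, 1032 and 1019 in SP_H. The ranges overlapped, with a log2 fold change of 0.08 ± 0.09 (edgeR's adjusted p = 0.735; -0.05 with library size alone). The minor copy fth1b stood at 11.4, 12.3 and 13.7 in SP_L and at 14.2, 16.2 and 12.6 in SP_H, with a value of -0.20 ± 0.14 (edgeR's adjusted p = 0.611).

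Around these genes, 8 lists of related pathways held 87 tested genes. EdgeR called 0 of them, DESeq2 called 3 (2 higher and 1 lower) and limma-voom 0. Over all tested genes the tools called 0.0679%, 2.18% and 0.0873%. At an unadjusted p under 0.05 edgeR counted 11 higher (12.6% of the 87, beside 6.9% of all genes) and 3 lower (5.84% of all genes were lower). Together they were 16.1% of the 87, beside 12.7% of all genes. The share that was higher thus exceeded that over all genes, and no test of the lists was made. The median log2 fold change of the 87 was 0.11, the same as for the 56 genes, beside 0.00 for all genes. With library size alone it was -0.02, beside -0.13 for all genes.

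Scaling by library size alone moved the median of all genes from 0.00 to -0.13, too little to turn the sign of the 3 genes called by DESeq2. The transketolase gene tkta, of the pentose phosphate pathway that also supplies NADPH, stood at 7.76, 13.6 and 11.3 TMM-scaled FPKM in SP_L and at 15.6, 19.7 and 21.8 in SP_H. The groups did not overlap, with a log2 fold change of -0.80 ± 0.19 (DESeq2 adjusted p = 0.00340, edgeR 0.133), while the copy tktb had a value of 0.19 ± 0.12. The selenoprotein gene selenok, whose product sits in the endoplasmic reticulum membrane, stood at 87.1, 69.7 and 76.3 in SP_L and at 49.2, 53.0 and 55.2 in SP_H. It too was without overlap, with a value of 0.57 ± 0.11 (DESeq2 adjusted p = 0.0145, edgeR 0.0925). The autophagy receptor gene sqstm1, whose product binds Keap1, stood at 27.4, 32.3 and 21.3 in SP_L and at 20.1, 18.7 and 16.2 in SP_H, again without overlap, with a value of 0.56 ± 0.15 (DESeq2 adjusted p = 0.0415, edgeR 0.169).

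Within the lists, NADPH supply had 11 of 15 positive genes, a median of 0.18 and 1 gene called lower by DESeq2, with pgls of the oxidative pentose phosphate branch at -0.48 ± 0.16. Cysteine supply had 6 of 9 positive genes, led by slc1a4 at 0.29 ± 0.09 and ahcy at 0.31 ± 0.11. The cystine importer gene slc7a11, a well-known Nrf2 target in mammals, had a value of 0.05 ± 0.23. Glutathione turnover and export had 11 of 16 positive genes; the peptidase gene lap3 had a value of 0.40 ± 0.09 (edgeR's adjusted p = 0.118, DESeq2 0.0548), and anpepa, also an enterocyte marker, one of 1.02 ± 0.45 (edgeR's adjusted p = 0.391). The levels of anpepa were 0.172, 0.353 and 0.423 TMM-scaled FPKM in SP_L and 0.177, 0.174 and 0.116 in SP_H, with overlap. They were lowest in SP_H replicate 3, as were the summed enterocyte markers. Peroxide and aldehyde removal had 7 of 8 positive genes, with esd at 0.29 ± 0.08, blvrb at -0.15 ± 0.12 and the catalase gene cat at 0.03 ± 0.11.

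The other lists were more mixed. Selenoproteins and their synthesis had 6 of 12 positive genes and a median of 0.04, with selenom at -0.45 ± 0.19 against the value of selenok above. Nrf2 partners had 7 of 10 positive genes, with the repressor gene bach1b at 0.35 ± 0.15. Superoxide sources had 3 of 7 positive genes, with the phagocyte oxidase gene ncf4 at 0.63 ± 0.31 and aox6 at 0.28 ± 0.15. Iron handling had 9 of 10 positive genes, with the heme-binding plasma protein genes hpxa at 0.33 ± 0.16 and hpxb at 0.33 ± 0.18, which are also hepatocyte markers. With library size alone the positive counts were 8, 5, 7, 4, 4, 5, 3 and 6 for the lists in the order given. Of all genes 28.5% were positive on that scaling and 50.5% with TMM.

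**Figure D5:**
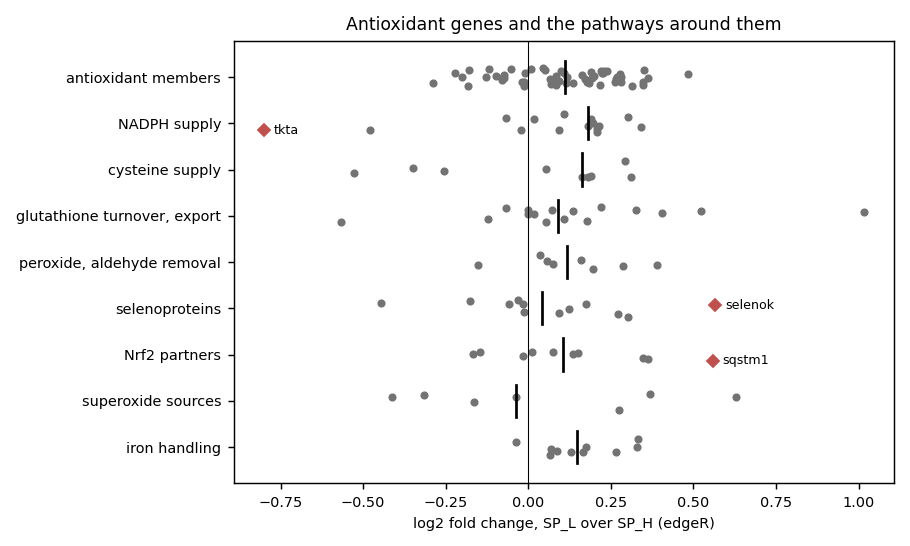
Log2 fold change of SP_L over SP_H (x axis, edgeR with TMM scaling) of the 56 antioxidant genes and of the genes of 8 related lists (y axis); each point is a gene, black bars are medians and red diamonds are genes called by DESeq2. The 3 diamonds are tkta at -0.80, selenok at 0.57 and sqstm1 at 0.56; no antioxidant gene is marked.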

How the data were processed

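RNA was extracted from whole larvae and made into stranded mRNA libraries, sequenced as paired ends, per the labels' protocols. The submitters' processing notes list Trimmomatic, HISAT2, HTSeq, Cufflinks and DESeq among other tools, without versions, and a mouse build (mm10) that conflicts with the bass gene names, so coordinates were left out. The authors deposited counts as whole numbers of reads per gene. Each deposited FPKM value is the count over a fixed length for the gene and the total of the library, as tested for 24734 genes with reads in 2 or more libraries. All 56 symbols matched the RefSeq table of assembly ASM1485139v1.

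Counts were tested in R 4.3.3 with edgeR 4.0.16: filterByExpr (minimum count 10, minimum total count 15; 20627 of 27166 genes), TMM scaling and a quasi-likelihood F test, adjusted by Benjamini-Hochberg over all tested genes with a threshold of 0.05. DESeq2 1.42.0 and limma 3.58.1 served as alternatives, with the others named in the closing section. The members and lists were chosen with earlier results of these data known. In each role group the 3 genes with the lowest edgeR p and the most abundant gene were given with values in every library; other genes were given by fold change, and those listed for groups without overlap or in the closing observations were picked after their values were seen. In each related list the called genes and the 2 with the lowest p were named; tktb, slc7a11 and cat were added after their values were seen.

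The squared difference between replicate libraries was 11.2 to 14.9 times what read sampling gives, so none repeats another. The labels do not tie each pool to a tank, so p-values measure the spread between pools only. The fitting steps were tested before use on 3 sets of simulated counts with known changes. Of the simulated calls, 17.9% were false for DESeq2 and 11.1% for edgeR, both above the threshold used. DESeq2 recovered 41.8% of changes of a fold of 1.5 and 81.1% of those of a fold of 2. For edgeR these shares were 33.3% and 75.1%. The absence of a call alone thus does not exclude a change by a fold of 1.5. The genes tkta, selenok and sqstm1 were called by DESeq2 only, the tool with the higher false share.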

Additional observations from a re-analysis of the deposited data

How the results depend on the processing

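Values for single genes in this paragraph are relative to the median of all genes. The count of antioxidant genes called was 0 under all 16 alternatives, with a smallest adjusted p of 0.158 (mgst3a, lower, edgeR with library size alone). Against 14 genes called by edgeR in all, DESeq2 gave 449, no filter 57, robust variance estimation 78, library size alone 5, and limma on log2 FPKM with a pseudocount of 1 or 0.1 gave 0 and 0 (3639 and 3614 at an unadjusted p under 0.05); leaving out a library gave 0 to 22, and RLE scaling, limma-voom and a filter of 10 counts in 3 libraries gave 14, 18 and 14. Of the related pathway genes 0 were called by edgeR and 3 by DESeq2. The number of antioxidant genes with a positive value was 39, between 34 and 42 with a library left out. The median of the 56 genes was 0.11, between 0.07 and 0.13 with a library left out. With the replicate number as a block edgeR called 2 genes in all and 0 of the 56. Same-numbered libraries did not deviate together (correlations of -0.07, -0.09 and -0.10), so the numbers are not taken to pair the libraries. With a library left out the sign turned for 7 of 35 genes given by library, at ranges of -0.12 to 0.55 for gsr, -0.134 to 0.086 for gsta.1, -0.21 to 0.23 for hmox1a, -0.060 to 0.219 for keap1a, -0.040 to 0.114 for nfe2l2a, -0.0010 to 0.135 for sod1 and -0.034 to 0.328 for txnipa, and for the ratio of txnl4b to txnl4a (-0.22 to 0.11). The cause was not tested.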

Other observations

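Within SP_L, several glutathione and peroxide genes were highest in replicate 2 and lowest in replicate 3, a pattern seen after the values were examined. The pattern held for gsr (21.0 against 8.36 TMM-scaled FPKM), prdx1 (60.8 against 33.4), gpx1b (34.7 against 19.2), msrb1b (5.51 against 4.08) and hmox1a (1.61 against 0.814). In each of these genes they were also the highest and lowest of all 6 libraries. The values of hmox1a rest on few reads, 31 in SP_L replicate 2 and 15 in SP_L replicate 3. The inhibitor gene txnipa was at its highest of the 6 libraries in SP_L replicate 3 (99.8). With 3 libraries in a group no relation between these genes was tested.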
